A study of Avena sativa with 6 samples.

Results

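Starch synthases, branching enzymes and debranching enzymes build the glucan chains of the starch granule, and 54 of 136488 genes in an oat grain expression table carried one of their KEGG orthology codes. The members were taken by code alone, whatever their values. There were 8 granule-bound starch synthase genes (K13679), 21 starch synthase genes (K00703), 15 branching enzyme genes (K00700) and 10 isoamylase genes (K01214). No gene of the table carried the pullulanase code (K01200), so the members cover isoamylase as the only debranching class. RNA came from peeled grains of BY9, a high-oil cultivar of hexaploid oat (Avena sativa), also called Baiyan No.9, and the study asks what the photosynthesis of the ear gives to grain weight and oil. One group of 3 libraries came from ears shaded for 4 days after flowering (ear-shaded) and the other 3 came from ears of the same cultivar left without shade (unshaded). The labels give neither the number of plants or ears pooled in a library nor whether each stands for different plants. The p-values therefore cover only how far these libraries scatter, which may be technical.

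Starch holds a pair of glucose polymers. Amylose is almost unbranched and is made by granule-bound starch synthase, the product of the Waxy locus. Amylopectin is branched and is made by the soluble starch synthases, which lengthen chains, by branching enzymes, which cut a chain and rejoin it as a side branch, and by debranching enzymes of the isoamylase and pullulanase types, which trim misplaced branches. In cereals the endosperm fills its amyloplasts with starch after flowering, while green tissue such as the young pericarp holds transient starch, and several of these enzymes have separate forms for the endosperm and for other tissues.

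The unit of level is FPKM, in which fragment numbers are divided by gene length and library size, so that genes of different length can be compared. FPKM summed to 493004.4 to 561771.7 per library, and the number of reads behind them is unknown. A gene is called where limma gave an adjusted p under 0.05 on log2(FPKM + 1), over the 58283 genes whose mean across the 6 libraries was 1 FPKM or more. On that scale the median log2 fold change of all genes tested was 0.26 with FPKM as deposited and -0.02 with median-of-ratios scaling, so a member near 0.26 moved with the bulk of the genes. Within groups, pairs of libraries had r of 0.949 to 0.965 over genes, apart from 0.989 between ear-shaded replicates 1 and 2. Copies on the A, C and D subgenomes can be close in sequence, and counting can split reads between them, which makes single copies less certain than sums.

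Of the 54 members, 46 passed the filter on low values and were tested. Under ear shading 22 were lower and 15 higher, and 9 did not pass, where 21.5% of all genes tested were called lower and 42.4% higher (63.9% in either direction). The members' median log2 fold change was -0.30, or -0.56 relative to the median of all genes. This offset was -0.63 with median-of-ratios scaling and -0.53 with libraries scaled to the same sum, but -0.14 with quantile normalization. It was -0.04 with a filter at 0.1 FPKM and 0.09 with no filter on low values, so it depended on the filter. The split of the members' calls depended on scaling, as did that of all genes. With FPKM as deposited 40.5% of the members' calls were higher, against 66.4% of the calls over all genes tested. With median-of-ratios scaling it was 32.4% (12 higher and 25 lower) against 47.4%. With libraries scaled to the same sum it was 52.8% (19 and 17) against 71.6%, and with no filter on low values 52.4% against 68.9%. Of the 46, 7 had a mean of 1 FPKM or more in the ear-shaded group alone and none in the unshaded group alone, so those 7, all among the 15 called higher, passed the filter through the group in which they were high. The authors' deposited table, in which every marked gene has a log2 fold change of more than 1 in size, marks 16 of the 54 as down and 15 as up.

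The summed level of the amylose enzyme was less reduced under shading than the sum of the 3 amylopectin classes. Of these classes, isoamylase was reduced less than the amylose enzyme with FPKM as deposited. Granule-bound starch synthase summed to 633.8, 595.1 and 485.04 FPKM in unshaded replicates 1 to 3 and to 371.1, 368.7 and 452.5 FPKM in the ear-shaded ones. The 3 amylopectin classes together summed to 1324.3, 1377.7 and 1140.1 FPKM in unshaded grains and to 721.02, 699.9 and 695.3 FPKM in ear-shaded grains. In both sums every ear-shaded library lay below every unshaded one. The granule-bound sum went from 571 ± 77.2 (SD, n = 3) to 397 ± 47.7 FPKM under shading, 1.44-fold lower, and the amylopectin sum was 1281 ± 125 and 705.4 ± 13.7 FPKM, 1.82-fold lower. With quantile normalization the granule-bound sum turned to 1.07-fold higher, while the amylopectin sum stayed 1.61-fold lower. With median-of-ratios scaling both were lower, 1.90-fold and 2.40-fold, and with libraries scaled to the same sum 1.31-fold and 1.65-fold.

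Within the amylopectin enzymes the classes were not lowered alike. Starch synthases, the chain-lengthening step, summed to 339 ± 31.9 FPKM without shading and 176 ± 7.24 FPKM with it, a 1.93-fold lower level. Branching enzymes were lower by nearly the same factor, 796 ± 88.0 against 417 ± 9.75 FPKM (1.91-fold), so their ratio to starch synthases was 2.34 ± 0.143 in unshaded and 2.37 ± 0.125 in ear-shaded grains, with overlapping groups. With quantile normalization the factors were 1.97 for starch synthases and 1.55 for branching enzymes, and the ratio was 2.05 to 2.17 in unshaded and 2.32 to 2.93 in ear-shaded libraries, with no overlap. Isoamylases were least reduced, from 145 ± 9.40 to 112 ± 4.80 FPKM (1.30-fold), which was also less than the granule-bound sum (1.44-fold). With quantile normalization that order turned, with isoamylases 1.32-fold lower and the granule-bound sum 1.07-fold higher. The ratio of isoamylases to branching enzymes, with FPKM as deposited, was 0.183 ± 0.0128 and 0.268 ± 0.00577, higher in every ear-shaded library than in any unshaded one.

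The share of granule-bound starch synthase in the summed FPKM of all classes, which scaling a library by 1 factor cannot change, was 32.4%, 30.2% and 29.8% in unshaded replicates 1 to 3. It was 34.0%, 34.5% and 39.4% in the ear-shaded ones. The groups did not overlap, and ear-shaded replicate 3 stood highest, apart from the closely similar replicates 1 and 2. The means were 30.8% ± 1.37 and 36.0% ± 3.00 (SD, n = 3), a difference of 5.18 percentage points, or 3.45 without ear-shaded replicate 3. The branching enzyme share was 43.0% ± 0.203 and 37.9% ± 2.09, and the isoamylase share 7.87% ± 0.515 and 10.2% ± 0.772. No p is given for sums over members, and 3 libraries against 3 could not go below 0.1 in an exact permutation test. In bulk RNA from grains, fewer cells of a type and less RNA per cell cannot be told apart.

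**Figure D1:**
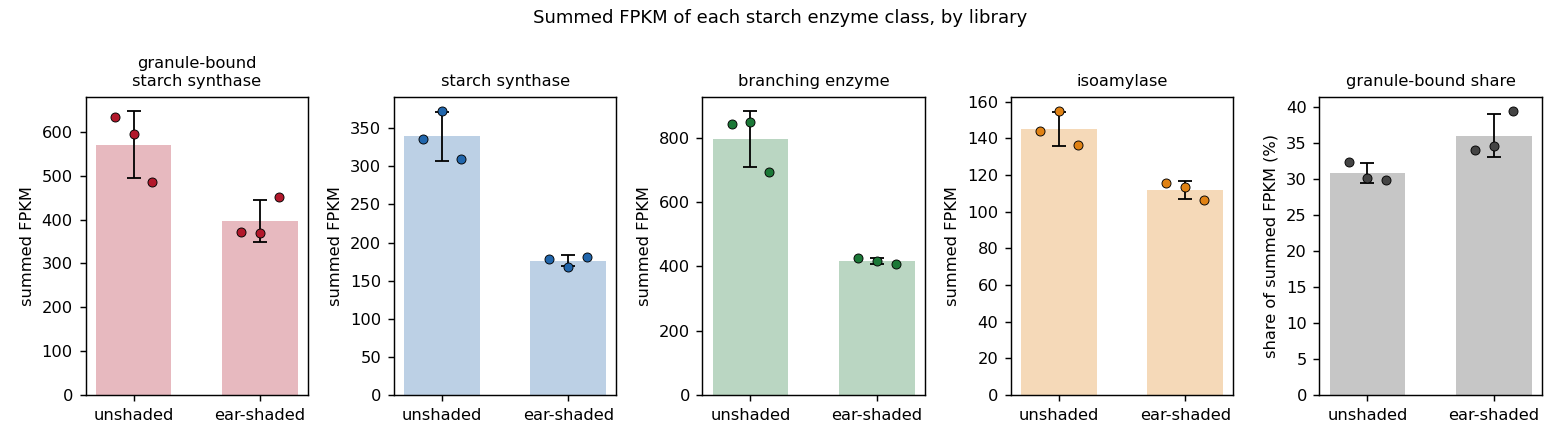
Summed FPKM of the 4 enzyme classes and the percentage held by granule-bound starch synthase, in unshaded and ear-shaded grains. Points are libraries, bars are means and error bars are SD (n = 3); all 4 sums are lower in ear-shaded grains and the granule-bound share is higher (30.8% and 36.0%), while the granule-bound sum turns to 1.07-fold higher with quantile normalization.

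Marker lists of the tissues in a peeled grain moved with shading too. Endosperm storage proteins were present in every library, summing to 19032.5 to 38867.5 FPKM without shading and 5848.2 to 9253.8 FPKM in ear-shaded grains. Of 90 tested genes 72 were lower (80%) and the others did not pass, where 21.5% of all genes tested were called lower. Green tissue markers summed to 155.6 to 208.3 and 2450.2 to 3006.5 FPKM. Of 142 tested genes 128 were higher (90.1%) and 7 lower, against 42.4% and 21.5% of all genes tested. Genes almost absent in unshaded grains could pass the filter only through the ear-shaded group. With no filter on low values 221 of 587 genes were higher (37.6%) and 13 lower (2.2%), against 28.4% and 12.8% of all genes. Oleosins, which mark embryo and aleurone oil bodies, summed to 18.2 to 32.01 and 7.05 to 7.61 FPKM, with 5 of 5 tested genes lower, or 2 without ear-shaded replicate 1 or 2 and 3 without ear-shaded replicate 3. No gene of these lists, as of the whole table, was listed at 0 in all 6 libraries. These lists moved together with the starch enzyme genes, the storage proteins and oleosins down like the abundant members and the green tissue markers up like the low members, and their part in the results was not tested.

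Granule-bound starch synthase was held almost wholly by 3 genes. AVESA.00010b.r2.5CG0866950, the most abundant member of any class, was at 312.4, 287.7 and 234.1 FPKM without shading and 162.1, 164.2 and 201.4 FPKM in ear-shaded libraries. AVESA.00010b.r2.7AG1201490 was at 201.1, 202.3 and 160.9 FPKM and at 122.9, 123.6 and 145.9 FPKM. AVESA.00010b.r2.7DG1337040 was at 119.7, 104.2 and 89.3 FPKM and at 80.6, 73.5 and 99.99 FPKM. The groups were apart for the 5C and 7A genes and overlapped for the 7D gene, and in all 3 genes unshaded replicate 3 was the lowest of its group and ear-shaded replicate 3 the highest of its own. The 5C gene fell 1.58-fold (log2 fold change -0.65, SE 0.21, limma adjusted p = 0.0252) and the 7A gene 1.44-fold (-0.52, SE 0.19, limma adjusted p = 0.0403), while the 7D gene did not pass (log2 fold change -0.30, SE 0.19, limma adjusted p = 0.198). With quantile normalization the sign of all 3 became positive, at 0.07, 0.08 and 0.12. Leaving out replicate 1 or 2 of either group ended the calls of the 5C and 7A genes, with log2 fold changes from -0.77 to -0.57 and from -0.63 to -0.46 and adjusted p up to 0.102 and 0.141 over the libraries left out in turn. Both calls also ended with no filter on low values and with ear-shaded replicates 1 and 2 averaged, and that of the 7A gene with a filter at 0.1 FPKM and with libraries scaled to the same sum.

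The other 5 granule-bound genes were each under 1 FPKM in unshaded grains and higher in every ear-shaded library. Together they summed to 0.487, 0.936 and 0.835 FPKM without shading and 5.58, 7.48 and 5.31 FPKM in ear-shaded libraries. AVESA.00010b.r2.5DG0999820, the 1 of them that was tested, rose from 0.564 ± 0.121 to 3.03 ± 0.495 FPKM (SD, n = 3), with a log2 fold change of 1.36 (standard error 0.13, limma adjusted p = 0.000119). It passed the filter through the ear-shaded group, where it was high. Below the filter, AVESA.00010b.r2.4CG1318140 was at 0.0509 ± 0.0225 and 0.820 ± 0.192 FPKM, and AVESA.00010b.r2.4CG1318150 at 0.105 ± 0.101 and 1.54 ± 0.663 FPKM. AVESA.00010b.r2.5AG0807870 was listed at 0 in all 3 unshaded libraries and at 0.236, 0.320 and 0.233 FPKM in the ear-shaded ones. The 4 untested genes were modelled at 327 to 1329 bases, against 2304 to 2509 bases for the 3 abundant genes and the 5D gene. Without these minor copies the class sum changed little, and it was 571 ± 77.3 FPKM without shading and 391 ± 48.4 FPKM in ear-shaded grains for the 3 abundant genes alone.

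The starch synthase class, in which the KEGG code joins several soluble types, had 7 genes lower, 7 higher, 5 that did not pass and 2 that were not tested. Over all genes tested, 21.5% were called lower and 42.4% higher. In the class 4 tested genes, all called higher, had a mean of 1 FPKM or more in the ear-shaded group alone. All 7 decreases were in genes at 10.3 FPKM or more in unshaded grains. AVESA.00010b.r2.7AG1210350 was at 74.3, 90.3 and 66.7 FPKM without shading and 22.4, 19.9 and 30.03 FPKM in ear-shaded libraries, 3.20-fold lower (log2 fold change -1.65, SE 0.19, limma adjusted p = 0.000251). AVESA.00010b.r2.7AG1204080 fell from 69.2 ± 10.3 to 25.2 ± 2.09 FPKM and AVESA.00010b.r2.2DG0402610 from 51.7 ± 3.01 to 19.7 ± 1.18 FPKM. AVESA.00010b.r2.5CG0862660 fell from 34.3 ± 3.77 to 14.9 ± 0.983 FPKM. In these 4 genes the groups stood far apart, by more than the spread within either. A further abundant gene, AVESA.00010b.r2.7DG1397440, was at 29.5 ± 0.979 and 23.2 ± 2.60 FPKM and narrowly missed the threshold (limma adjusted p = 0.0505). A call as lower came with median-of-ratios scaling, quantile normalization, no variance trend or library weights and without ear-shaded replicate 3 (log2 fold changes from -0.42 to -0.27 over the libraries left out in turn).

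Starch synthase genes described by a starch-binding module of family 53, a module known from starch synthase III of plants, did not move together. There were 6 such genes, 2 lower, 1 higher, 2 that did not pass and 1 that was not tested. The shares over all genes tested were 21.5% lower and 42.4% higher. AVESA.00010b.r2.7AG1239790 had the largest decrease of any tested member with FPKM as deposited, from 19.5, 24.3 and 19.1 FPKM to 3.84, 3.79 and 4.43 FPKM, 5.22-fold (log2 fold change -2.12, SE 0.13, limma adjusted p = 2.91e-05). AVESA.00010b.r2.UnG1468260, on no assigned chromosome, fell from 19.9 ± 0.380 to 7.69 ± 1.61 FPKM. AVESA.00010b.r2.7AG1239780 rose from 1.96 ± 0.542 to 5.92 ± 1.02 FPKM. The 7C gene AVESA.00010b.r2.7CG0677010 had 9.13 ± 0.760 and 12.9 ± 2.89 FPKM and did not pass (limma adjusted p = 0.0573). Ear-shaded replicate 3 at 9.55 FPKM lay within the unshaded range of 8.40 to 9.91 FPKM, and the gene passed as higher without that library (log2 fold change 0.62, limma adjusted p = 0.00434).

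A pair of low-level starch synthase sets rose in each of their 3 copies. The 2A, 2C and 2D genes described as starch synthase 3 (AVESA.00010b.r2.2AG0240470, AVESA.00010b.r2.2CG0318880 and AVESA.00010b.r2.2DG0363110) went from 0.807 ± 0.197, 1.58 ± 0.459 and 1.15 ± 0.497 FPKM to 2.18 ± 0.598, 4.76 ± 1.28 and 3.32 ± 0.731 FPKM. They rose by similar factors of 2.70, 3.01 and 2.89 in mean FPKM, and in each the ear-shaded replicate 3 was the lowest of its group. The 6A, 6C and 6D genes (AVESA.00010b.r2.6AG1025020, AVESA.00010b.r2.6CG1091870 and AVESA.00010b.r2.6DG1174720) were near silent in unshaded grains, at 0.160 ± 0.114, 0.252 ± 0.165 and 0.283 ± 0.0881 FPKM. Under shading they reached 2.93 ± 0.536, 2.26 ± 0.312 and 3.81 ± 0.492 FPKM. The 6D gene had the largest increase among the tested members with FPKM as deposited, 1.90 on the log2 scale (SE 0.13, limma adjusted p = 3.56e-05). In mean FPKM the 6A, 6C and 6D genes rose 18.3-fold, 8.95-fold and 13.5-fold, the 6C gene 13.9-fold without unshaded replicate 3. The 6A, 6C, 6D and 2A genes are among the 7 that passed the filter through the ear-shaded group. Of these 6 genes the 6D gene was named by rule and the others were chosen after their values were seen.

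Branching enzyme, which sets the branch points of amylopectin, had the highest summed level of the 4 classes in every unshaded library and in ear-shaded replicates 1 and 2, while granule-bound starch synthase was higher in ear-shaded replicate 3 and, with quantile normalization, in all 3 ear-shaded libraries. Branching enzyme had 7 genes lower and 4 higher, where 21.5% and 42.4% of all genes tested were so called. Another 3 did not pass and 1 was not tested. Of the 4 higher, AVESA.00010b.r2.4CG1289000, named after its values were seen, passed the filter through the ear-shaded group (0.893 ± 0.151 and 1.48 ± 0.0425 FPKM). Its call ended with median-of-ratios scaling, quantile normalization, a replicate block or ear-shaded replicates 1 and 2 averaged. It also ended without unshaded replicate 2 or ear-shaded replicate 1. AVESA.00010b.r2.6AG1020500 was at 210.6, 243.8 and 178.4 FPKM without shading and 73.8, 72.1 and 90.4 FPKM in ear-shaded libraries, a 2.68-fold decrease. AVESA.00010b.r2.6CG1099110 was at 192.1, 200.1 and 173.03 FPKM and at 53.96, 53.4 and 55.8 FPKM, a 3.46-fold decrease (log2 fold change -1.77, SE 0.15, limma adjusted p = 7.19e-05). AVESA.00010b.r2.6DG1179060 was at 147.8, 159.04 and 125.8 FPKM and at 84.9, 82.8 and 80.2 FPKM. The groups were apart in all 3, and the 6D gene fell least, 1.75-fold (log2 fold change -0.79, SE 0.16, limma adjusted p = 0.00371), a call that ended with quantile normalization (-0.33). The 6C gene thus stood close to the 6A gene and above the 6D gene in unshaded grains and below both in ear-shaded grains, a difference between copies that was not tested. A 6A model with a consecutive ID, AVESA.00010b.r2.6AG1020510, rose. Summed over both models, the 6A level was 230 ± 31.8 and 134 ± 7.60 FPKM, 1.71-fold lower. FPKM is already divided by the length of each model, so this sum overstates the level if both are parts of 1 gene. The ranking of the copies therefore depends on whether and how both 6A models are counted.

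The 3 branching enzyme genes described as chloroplastic or amyloplastic all fell. AVESA.00010b.r2.6CG1149580 fell from 107.5, 90.9 and 72.7 FPKM to 25.7, 26.6 and 23.1 FPKM, 3.59-fold (log2 fold change -1.79, SE 0.17, limma adjusted p = 0.000113). AVESA.00010b.r2.2AG0261720 fell from 55.1 ± 6.74 to 24.8 ± 2.91 FPKM, and AVESA.00010b.r2.7DG1343190, named after its values were seen, from 34.7 ± 7.69 to 22.1 ± 2.34 FPKM. The 4 genes described by the C-terminal all-beta domain of alpha-amylases, a fold that branching enzymes share, lay on 2A, 2C and 2D. The 2A and 2D genes were at 16.8 ± 2.13 and 9.23 ± 1.78 FPKM without shading and 20.6 ± 2.47 and 12.1 ± 1.46 FPKM in ear-shaded grains, and neither passed. Of the 2C pair, AVESA.00010b.r2.2CG0298930 rose from 2.23, 3.23 and 0.347 FPKM to 8.65, 6.77 and 7.58 FPKM (log2 fold change 1.71, SE 0.38, limma adjusted p = 0.00491) and AVESA.00010b.r2.2CG0298940, named after its values were seen like the 2A and 2D genes, fell from 14.2 ± 1.53 to 6.70 ± 1.08 FPKM. Unshaded replicate 3 was far below the other unshaded libraries for AVESA.00010b.r2.2CG0298930, and the fold was 3.96 with it and 2.81 without it.

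Isoamylase, the debranching enzyme that trims amylopectin, had 6 genes lower and 3 higher, against 21.5% and 42.4% of all genes tested. Its other gene was not tested, and the changes in its abundant genes were small. By gene ontology terms, the 6 lower genes carried amylopectin synthesis, the others did not, and all 10 carried starch breakdown. The 3 abundant genes each fell by about the same factor. AVESA.00010b.r2.7AG1218630 was at 49.0, 51.8 and 44.7 FPKM without shading and 37.2, 38.2 and 35.1 FPKM in ear-shaded libraries, AVESA.00010b.r2.5CG0931350 was at 40.4 ± 2.78 and 29.5 ± 0.966 FPKM, and AVESA.00010b.r2.7DG1389840 at 30.9 ± 2.75 and 23.5 ± 1.26 FPKM. Their folds were 1.32, 1.37 and 1.31, and the limma adjusted p were 0.0316, 0.0152 and 0.0304. All 3 calls ended with libraries scaled to the same sum. They also ended without unshaded replicate 2 or ear-shaded replicate 2, and those of the 7A and 7D genes also without unshaded replicate 1 or ear-shaded replicate 1, the 7D gene's without ear-shaded replicate 3 as well, with log2 fold changes from -0.48 to -0.31 and adjusted p up to 0.0994. The 7A gene's call ended with quantile normalization too.

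A less abundant isoamylase set held larger decreases, and 3 genes at low level were called higher. AVESA.00010b.r2.1AG0020800 fell from 7.88, 7.37 and 7.35 FPKM to 3.84, 3.82 and 3.58 FPKM, 2.01-fold (log2 fold change -0.85, SE 0.10, limma adjusted p = 0.000291). AVESA.00010b.r2.1DG0171580 fell from 7.93 ± 0.590 to 4.80 ± 0.336 FPKM. The third chromosome 1 gene, AVESA.00010b.r2.1AG0052860, fell from 5.59 ± 0.0865 to 4.37 ± 0.113 FPKM, but its call ended with libraries scaled to the same sum and without any one library other than unshaded replicate 3 (log2 fold changes from -0.31 to -0.28). Among low genes, AVESA.00010b.r2.5AG0849210 rose 4.15-fold, from 0.653 ± 0.174 to 2.71 ± 0.684 FPKM, and it passed the filter through the ear-shaded group, where it was high. AVESA.00010b.r2.5DG0960600 and AVESA.00010b.r2.5CG0884600 rose 1.55-fold and 1.61-fold, calls that ended with median-of-ratios scaling and with quantile normalization. For the 5D gene, leaving out replicate 1 or 2 of either group also ended the call (log2 fold changes from 0.32 to 0.52), and for the 5C gene without ear-shaded replicate 2 (0.38). The 5A, 1AG0052860 and 5CG0884600 genes were named after their values were seen.

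Pullulanase, the other debranching type, appears only as text. There were 5 genes described as pullulanase 1 without its KEGG code, found after the values were seen and kept out of the members. AVESA.00010b.r2.1AG0028630 was at 10.3, 9.25 and 7.62 FPKM without shading and 2.19, 2.15 and 2.71 FPKM in ear-shaded libraries, a 3.85-fold decrease (log2 fold change -1.58, SE 0.14, limma adjusted p = 7.9e-05). MSTRG.77569 fell 2.04-fold, AVESA.00010b.r2.2DG0389100 1.65-fold and AVESA.00010b.r2.6CG1118150 1.39-fold, the last 2 with limma adjusted p of 0.0470 and 0.0484. AVESA.00010b.r2.UnG1438080 had 4.60 ± 2.93 FPKM without shading and 5.05 ± 0.571 FPKM with it and did not pass. Adding the 5 genes to the amylopectin sum left the difference in the granule-bound share at 5.14 percentage points.

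Across the classes, decreases were most frequent among the abundant genes. Of 8 members at 50 FPKM or more on average over the 6 libraries, 7 were lower and the other did not pass, where 49.7% of all genes at that level were called lower and 19.2% higher. The exception was AVESA.00010b.r2.7DG1337040, and this gene and the abundant 5C and 7A granule-bound genes are those of the band whose sign turned with quantile normalization. Of 17 members between 10 and 50 FPKM, 11 were lower and 2 higher, against 29.6% and 37.2% of all genes. Of 21 members between 1 and 10 FPKM, 4 were lower and 13 higher, against 19.3% and 43.9%. Of the 13, 7 passed the filter through the ear-shaded group alone, which fixed their direction, and the other 14 members of that band held 6 higher, 4 lower and 4 that did not pass. The whole table shifted with level as well, its median log2 fold change going from 0.29 in the lowest band to -0.55 in the highest, while the members' median went from 0.44 to -1.10. The 8 members under 1 FPKM were not tested. In 7 of them every ear-shaded library lay above every unshaded one, which was so in 27.4% of all genes under 1 FPKM, and in 1 the groups overlapped.

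**Figure D2:**
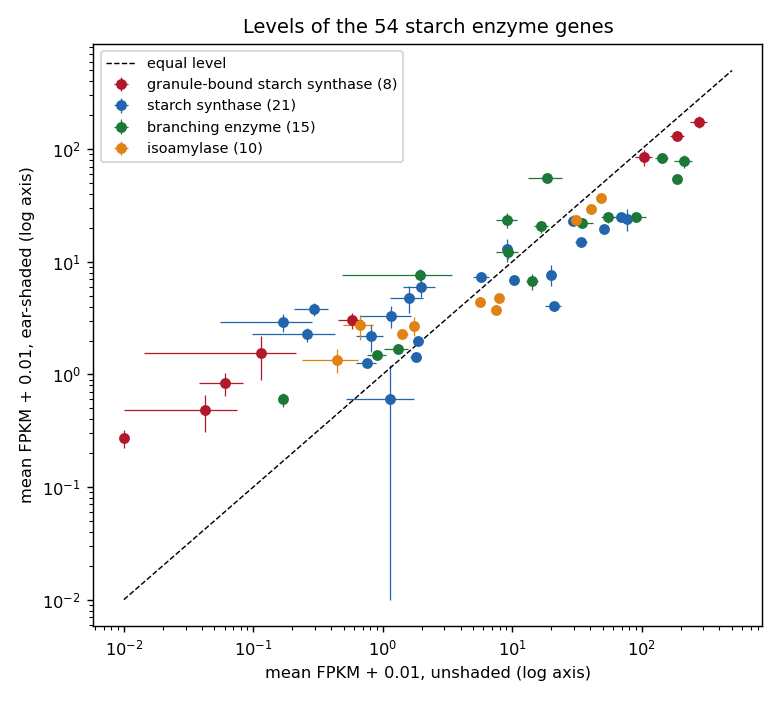
Mean FPKM of each of the 54 members in unshaded (x axis) and ear-shaded grains (y axis), with 0.01 added and both axes logarithmic; colours are enzyme classes, bars are SD (n = 3) and the dashed line marks equal levels. Most members at high level lie below the line and most at low level above it.

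**Figure D3:**
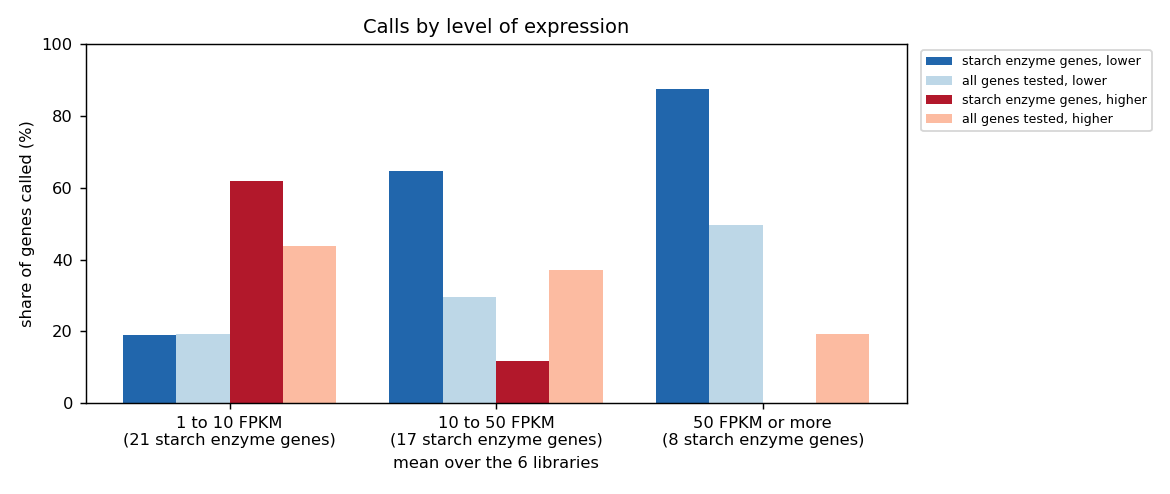
Share of genes called lower or higher by limma under ear shading (y axis, percent) in 3 bands of mean FPKM (x axis), for the starch enzyme genes and for all genes tested. Of the 8 starch enzyme genes at 50 FPKM or more, 7 were lower, against 49.7% of all genes at that level; with quantile normalization 3 granule-bound genes of that band turned sign.

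**Figure D4:**
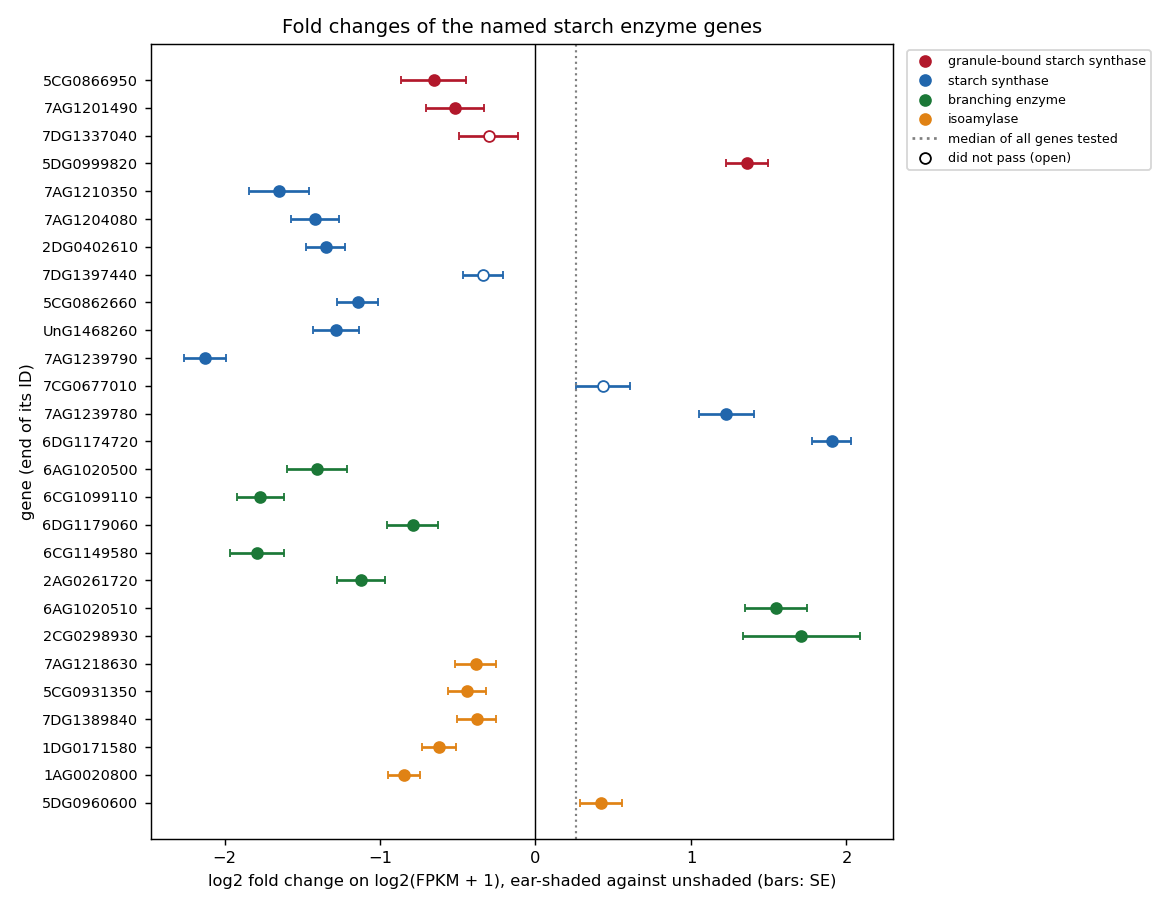
Log2 fold change on log2(FPKM + 1) of each starch enzyme gene named by rule, ear-shaded against unshaded, with SE (x axis); filled points passed limma's adjusted p of 0.05, open points did not, and the dotted line is the median of all genes tested (0.26). The 3 abundant granule-bound genes and the 3 abundant isoamylase genes lie nearer to 0 than the abundant branching enzyme genes, and the abundant granule-bound ones turn sign with quantile normalization.

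In 3 cases, members with consecutive IDs in the table and the same enzyme code moved in opposite directions. Both 7A genes with starch-binding module text are such a pair: AVESA.00010b.r2.7AG1239780 held 11.3%, 5.45% and 9.49% of the pair's FPKM without shading and 63.6%, 62.4% and 51.8% in ear-shaded libraries. The 6A branching enzymes are another, with AVESA.00010b.r2.6AG1020510 at 24.8, 14.4 and 16.9 FPKM without shading and 57.7, 55.9 and 52.1 FPKM in ear-shaded libraries (log2 fold change 1.55, SE 0.20, limma adjusted p = 0.000376) beside the fall of AVESA.00010b.r2.6AG1020500. The third is the 2C branching enzyme pair. In each, the gene with the lower level in unshaded grains rose and the other fell, in every library. The remaining pairs with consecutive IDs, granule-bound genes on 4C and on 5A and isoamylases on 5D, did not move in opposite directions. Both genes of each were higher in every ear-shaded library, but none of these pairs had both genes tested. How often neighbouring genes of the whole table have opposite calls was not tested.

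The 6A and 7A models are shorter than those of genes of the same class and description on the other subgenomes of their chromosome. The 6A branching enzyme models span 1170 and 1206 bases, against 3945 bases for AVESA.00010b.r2.6CG1099110 and 4717 bases for AVESA.00010b.r2.6DG1179060. The 7A starch synthase models span 2365 and 2180 bases, against 5783 bases for AVESA.00010b.r2.7CG0677010 and 4530 bases for AVESA.00010b.r2.7DG1369090. Summed over both models, the 6A pair was at 230 ± 31.8 and 134 ± 7.60 FPKM, 1.71-fold lower, and the 7A pair at 22.9 ± 2.45 and 9.93 ± 0.684 FPKM, 2.31-fold lower. The 2C pair, of 2520 and 3457 bases, summed to 16.1 ± 2.77 and 14.4 ± 1.14 FPKM, a difference within the spread. Whether the models of a pair are parts of 1 gene or separate genes was not tested. For parts of 1 gene these sums would overstate its level, because FPKM is divided by the length of each model.

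**Figure D5:**
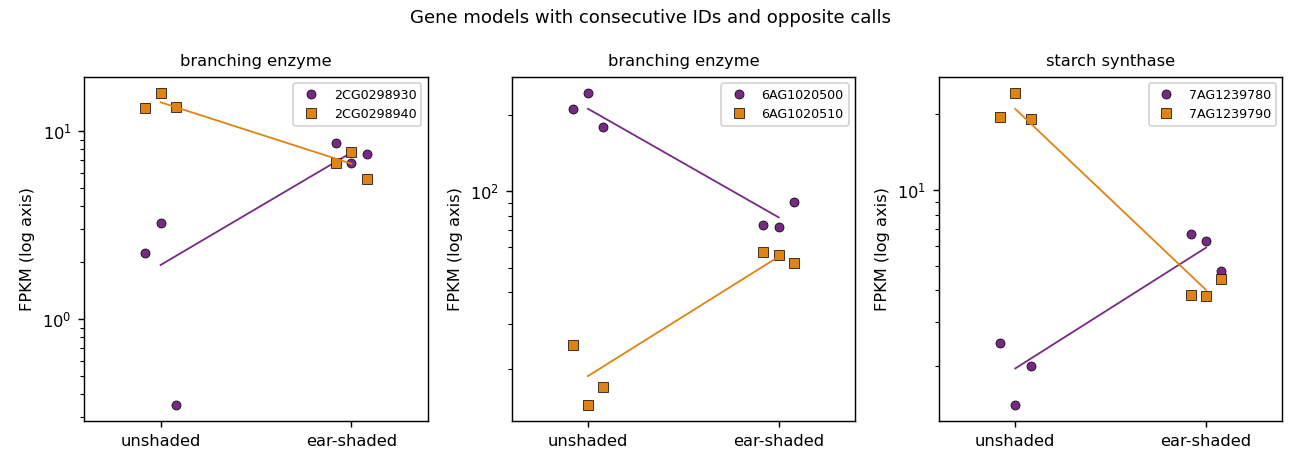
FPKM (log axis) of the 3 pairs of members with consecutive IDs and opposite calls, in unshaded and ear-shaded grains; points are libraries and lines join group means. In each pair the lower gene of the unshaded grains rose and the higher one fell, and the group means crossed for the 2C and 7A pairs.

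Gene ontology terms, which the choice of members did not use, were spread unevenly over the classes and calls. Whether these terms were assigned independently of the KEGG codes was not tested. The term for amylopectin synthesis was carried by 27 members and by no granule-bound gene. Of the 27, 15 were lower, 7 higher, 4 did not pass and 1 was not tested. In isoamylases its 6 carriers were all lower, while the 3 called higher and the untested gene lacked it. The term for starch breakdown was carried by all 10 isoamylases and by no other member. The amyloplast term was carried by 21 members, 13 of them lower and 5 higher, among them the 3 abundant granule-bound genes and none of the other 5. In starch synthases 5 of 6 genes with that term were lower and 1 did not pass. In isoamylases it was the reverse with FPKM as deposited, with 3 of 4 carriers higher and 1 not tested, and all 6 genes without it lower. Of the 3, the 5A gene passed the filter through the ear-shaded group. The calls of the 5C and 5D carriers ended with median-of-ratios scaling and with quantile normalization. Among the lower genes, the calls of those on chromosomes 5 and 7 and of AVESA.00010b.r2.1AG0052860 ended with libraries scaled to the same sum. Members with the amyloplast term had a median of 37.0 FPKM and those without it 2.24 FPKM, but in isoamylases the medians were 1.76 FPKM with it and 16.8 FPKM without it. Among all genes tested, 21.5% were called lower and 42.4% higher. The shares were 19.3% and 43.9% at 1 to 10 FPKM, 29.6% and 37.2% at 10 to 50 FPKM, and 49.7% and 19.2% at 50 FPKM or more. Term and level were not separated.

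The shares of the C and D subgenomes differed between the groups. Genes with C in the chromosome name of their ID (14 members) held 36.5%, 35.1% and 35.4% of the members' summed FPKM without shading and 30.4%, 31.1% and 31.1% in ear-shaded libraries. Genes with D (18 members) held 23.6% ± 0.484 and 27.7% ± 0.433, and genes with A (20 members) 39.1% ± 1.17 and 38.6% ± 0.280. The C share was lower and the D share higher in every ear-shaded library, while the A groups overlapped. Whether the shares over all genes of the table shifted alike, or those of the members hold with quantile normalization, was not tested. The 6C genes of branching enzyme fell 3.46-fold and 3.59-fold and the 6D gene 1.75-fold.

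Of the tested genes on the route from sucrose to ADP-glucose, which precedes these enzymes, 39.4% were called lower and 25.8% higher, against 21.5% and 42.4% of all genes. ADP-glucose pyrophosphorylase, which makes the glucose donor of all starch synthases, had 9 of 15 genes lower and 1 higher, and its summed level was 1.91-fold lower, close to the factor of the amylopectin enzymes. Sucrose synthase, which opens sucrose for this route, had 7 of 10 tested genes lower and 3 that did not pass, or 4 lower and 1 higher with quantile normalization. Its lower count was 5 to 8 without 1 library, and 5 without replicate 1 or 2 of either group. The other enzymes of the route did not all fall. UDP-glucose pyrophosphorylase summed 1.47-fold and phosphoglucomutase 1.27-fold higher, each with every ear-shaded library above every unshaded one. With median-of-ratios scaling these sums were 1.11-fold higher and 1.04-fold lower. Fructokinase summed 1.42-fold lower, with 5 of 11 tested genes higher and 3 lower. For hexokinase and glucose-6-phosphate isomerase the groups overlapped. In the whole list from sucrose to ADP-glucose, 26 of 66 tested genes were lower and 17 higher. With median-of-ratios scaling 33 were lower (50%) and 10 higher (15.2%), against 31.1% and 28.0% of all genes. Glucan turnover had 26 of 56 tested genes higher (46.4%) and 9 lower (16.1%), against 42.4% and 21.5% of all genes. With median-of-ratios scaling it had 21 higher (37.5%) and 17 lower (30.4%), against 28.0% and 31.1%. Within it, starch phosphorylase had 4 of 8 higher and 4 lower and a summed level 1.78-fold lower. Beta-amylase, which releases maltose from starch, had 7 of 15 higher (46.7%) and 1 lower and a summed level 7.55-fold higher. With median-of-ratios scaling 6 were higher and 4 lower, and the sum was 5.69-fold higher. As deposited, the beta-amylase sum was 32.1 to 48.2 FPKM without shading. It was 355.2, 360.5 and 170.8 FPKM in ear-shaded replicates 1 to 3, so replicate 3 was far below the other ear-shaded libraries. No text in the table matched the ADP-glucose transporter or the starch helper proteins looked for, and these were not analysed here.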

How the data were processed

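Values came from 6 libraries of peeled oat grains, 3 per group as the treatment label gives them. The labels' protocols describe Trizol RNA, mRNA fragmentation, random priming and an Illumina kit, and they also name a PacBio sequencer. HISAT2 and StringTie are named, without role or version, in the submitters' processing notes, while the sources used here give no build, annotation or strand setting. The authors deposited FPKM per gene and library, with their own log2 fold change, p-value and adjusted p-value. FPKM times gene length fell within 0.05 of whole multiples of the best step for 17.0% to 20.6% of low values (10% by chance at 1 fixed step), so whole reads were not recovered, depth is unknown and no count model was used.

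Genes averaging 1 FPKM or more were tested with limma 3.58.1 (R 4.3.3) on log2(FPKM + 1) with a mean-variance trend, with two-sided p adjusted by Benjamini-Hochberg over the 58283 genes and a threshold of 0.05. Folds are ratios of mean FPKM; a log2 fold change is a difference in log2(FPKM + 1) and understates the change of low genes. The model was tested on simulated data. Named by rule were, per class, the 5 members of highest mean (8 for starch synthases) and up to 2 called members of largest change each way with a mean of at least 2 FPKM, 27 genes in all. Members, lists and alternatives were chosen with earlier results of these data known. Alternatives covered the pseudocount, filters, 3 scalings, the variance model, library weights, a replicate block, each library left out and ear-shaded replicates 1 and 2 averaged. Tables and figures used Python 3.11 and matplotlib. No genome or sequence was used.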

Additional observations from a re-analysis of the deposited data

How the results depend on the processing

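The counts of 22 lower and 15 higher members stayed within 1.5 times under all 16 alternatives, between 16 and 25 lower and between 12 and 22 higher. Leaving out 1 library gave 16 to 22 lower and 13 to 16 higher. The replicate number as a block gave 16 lower and 13 higher. Same-numbered libraries did not deviate together from their group means (r from -0.147 to -0.046), and differently numbered ones had r from -0.081 to 0.122. This cannot exclude a pairing by number, because deviations from a mean of 3 libraries constrain each other. Averaging ear-shaded replicates 1 and 2 gave 16 and 13 as well. The difference in the granule-bound share, 5.18 percentage points, ran from 3.45 to 6.17 without 1 library, and was 12.3 with quantile normalization and 10.4 with the most abundant gene of each class alone; the cause was not tested. Of 736 single-gene values under alternatives, 644 kept their direction and side of the threshold, 63 lost a call, 20 gained one and 9 turned sign. With quantile normalization the sign turned for AVESA.00010b.r2.5CG0866950 (0.0662), AVESA.00010b.r2.7AG1201490 (0.0751), AVESA.00010b.r2.7DG1337040 (0.12), AVESA.00010b.r2.7DG1362920 (-0.0008) and AVESA.00010b.r2.1DG0158830 (-0.18). With median-of-ratios scaling it turned for AVESA.00010b.r2.2AG0219460 (-0.0904), AVESA.00010b.r2.7DG1362920 (-0.0016), AVESA.00010b.r2.7DG1369090 (-0.0476) and AVESA.00010b.r2.1DG0158830 (-0.20). Depth is unknown, so how far it limits the low genes cannot be said.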
